A study of Capra hircus with 6 samples.

Results

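The genes described here carry, make or break down retinoic acid, and they were followed in whole ovaries of 6 goats (Capra hircus). The set named 9 genes (CRABP1, CRABP2, RBP4, STRA6, RDH10, ALDH1A1, ALDH1A2, ALDH1A3 and CYP26B1) out of 17504 genes in the expression tables. CRABP1 was chosen by its high level in a pair of Jintang ovaries, so its values are given as a description and without a test. The other genes were added for their place in the same pathway, with earlier results of these data known. CYP26B1, a retinoic acid hydroxylase, matched no gene, and the remaining 8 genes are described.

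Total RNA came from the ovaries of 3 Tibetan goats, labelled as non-prolific, and 3 Jintang black goats, labelled as prolific. All 6 animals were in the follicular phase, when follicles grow towards ovulation, and the labels name no treatment, transgene or age. The question was how ovarian transcripts differ between the breeds. Each library came from 1 goat, and whole ovaries hold oocytes, granulosa and theca cells, stroma, vessels, surface epithelium and, at times, luteal tissue.

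Retinol, the alcohol form of vitamin A, travels in blood bound to RBP4 and can enter cells through the membrane receptor STRA6. Inside the cell RDH10 and related enzymes oxidise it to retinal, and the ALDH1A enzymes oxidise retinal to retinoic acid, which is bound by CRABP1 and CRABP2, acts on nuclear receptors of the RAR and RXR families, and is cleared by CYP26 hydroxylases. In the ovary, retinoic acid is best known for its part in the entry of fetal germ cells into meiosis, and follicle cells of the adult can also make it.

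Levels are in FPKM, the number of fragments per kilobase of a transcript, relative to all fragments mapped in that library. FPKM is corrected for transcript length, so levels may be compared between genes of 1 library. The sum of FPKM ran from 602255 to 682801 per library. Absolute depth is unknown, and the spacing of the lowest values put relative depth between 0.924 and 1.028, with Tibetan 1 set to 1. The granulosa cell transcription factor FOXL2 stood between 1.75 and 16.0 FPKM in the 6 ovaries, and the oviduct ciliated cell factor FOXJ1 was at 0 in all of them. Breed differences are the mean log2(FPKM + 1) of Jintang ovaries minus that of Tibetan ovaries. This scale makes differences of weakly expressed genes look smaller. They were tested with limma over the 13067 genes that reached 1 FPKM in 3 or more libraries. All 8 genes reached this level, and means are given with SD and n = 3 goats.

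The genes differed widely in how much they varied between ovaries. CRABP1, CRABP2, STRA6 and ALDH1A2 differed between the highest and the lowest ovary by 72.9-fold, 70.3-fold, 40.6-fold and 20.3-fold. For these 4 genes the SD of the log2 level over the 6 ovaries exceeded that of 98.0% to 99.9% of the 13067 genes. The place of CRABP1 among them follows in part from its choice by its high ovaries. RBP4, ALDH1A1 and ALDH1A3 spanned between 2.62-fold and 3.78-fold. RDH10 was the steadiest of the 8, at 1.66-fold, and 18.0% of all tested genes had a smaller SD.

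**Figure D1:**
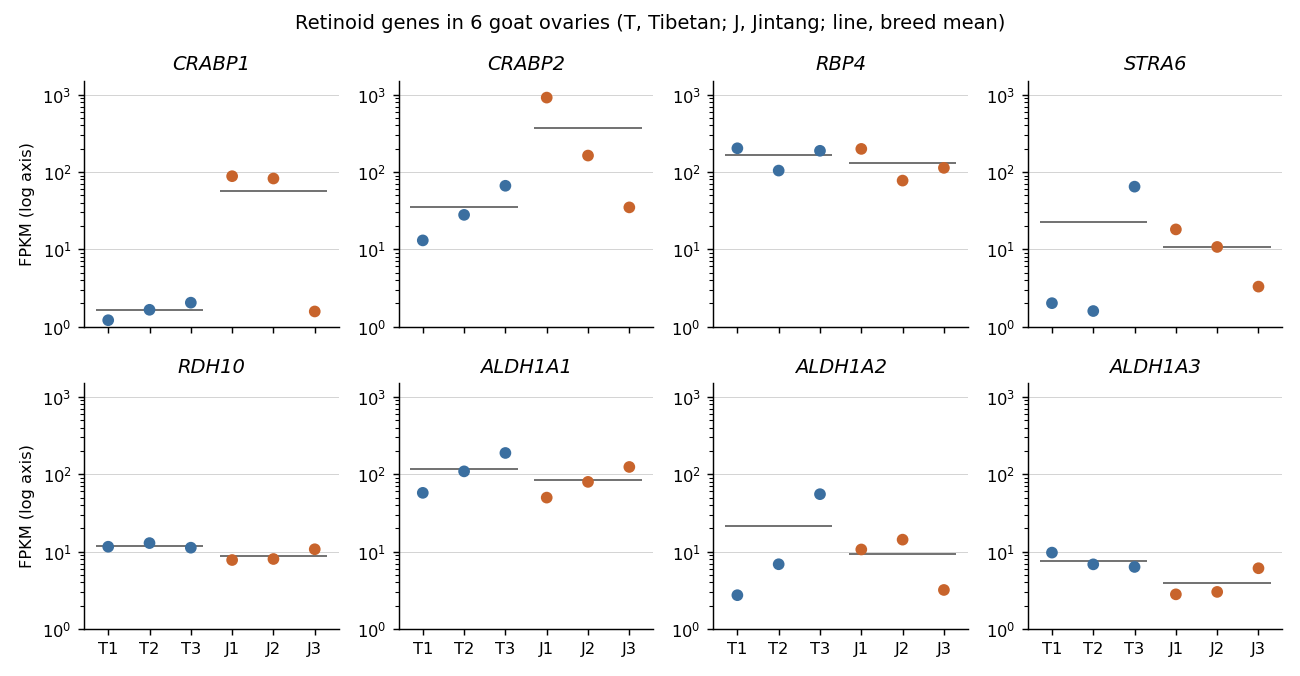
FPKM (log axis) of the 8 retinoid genes in each of the 3 Tibetan (T, blue) and 3 Jintang (J, orange) ovaries; each point is 1 goat and each line a breed mean. CRABP1 stood at 88.2 and 82.3 FPKM in Jintang 1 and Jintang 2 and at 2.04 FPKM or less in the other 4 ovaries, while RDH10 lay between 7.78 and 12.9 FPKM throughout.

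The retinoic acid carriers showed the widest range. CRABP1, the cellular retinoic acid-binding protein 1 gene (GeneID 102182914), measured 1.21, 1.65 and 2.04 FPKM in the Tibetan ovaries. In Jintang 1, 2 and 3 it measured 88.2, 82.3 and 1.57 FPKM. Jintang 3 lay within the Tibetan range, so the breeds overlapped. The lower of the 2 high ovaries exceeded the highest of the other 4 by 40.3-fold. By that ratio, taken on FPKM + 1, CRABP1 ranked 3 among the 13067 genes. The gene was picked for its level in these 2 ovaries, so this rank restates the choice and is no separate result. Within a library its level ranked 943 of 17504 genes in Jintang 1 and 1172 in Jintang 2, against ranks between 11818 and 12410 elsewhere. The breed means were 1.63 ± 0.415 and 57.4 ± 48.4 FPKM, and the log2 difference of 3.36 became 5.05 without Jintang 3 and 2.49 without Jintang 1.

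CRABP2, whose product hands retinoic acid to its nuclear receptors (GeneID 102174348), was at 13.0, 27.9 and 66.3 FPKM in the Tibetan ovaries and at 916, 163 and 34.8 FPKM in the Jintang ovaries. As for CRABP1, the order from the top was Jintang 1, Jintang 2 and Tibetan 3. Unlike CRABP1, it exceeded 10 FPKM in every ovary. In Jintang 1 it was the gene with rank 112 of 17504, and in Tibetan 1 it had rank 6348. The difference between the breeds was 2.54 (95% interval 0.06 to 5.02), with 2 of 3 Jintang ovaries above all Tibetan ovaries, and it did not pass (limma adjusted p = 0.743, unadjusted p = 0.0457). Without Jintang 1 the difference was 1.35, and without Jintang 3 it was 3.69 with a limma adjusted p of 0.200.

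The 2 carriers differed in their proportions. CRABP1 made up 33.6% of the summed CRABP1 and CRABP2 FPKM in Jintang 2, 8.78% in Jintang 1 and between 2.99% and 8.50% in the other ovaries. The sum reached 1004 FPKM in Jintang 1 and 245 FPKM in Jintang 2, and lay between 14.2 and 68.3 FPKM in the other 4 ovaries. Set against the summed FPKM of the 3 ALDH1A genes, the carriers stood at 15.9 to 1 in Jintang 1 and 2.53 to 1 in Jintang 2, and at 0.273 to 1 or less elsewhere. In Jintang 1 and Jintang 2 carrier transcripts outnumbered those of the enzymes that make retinoic acid, and in the other 4 ovaries they were fewer.

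Summed markers of luteal, stromal and endothelial cells were highest in Jintang 1 and 2, the ovaries of high CRABP1, while those of macrophages were highest in Jintang 1 alone. Of 13 listed luteal markers 10 were found, and their summed FPKM was 6565 in Jintang 1 and 24418 in Jintang 2, 596 in Jintang 3, and between 408 and 3224 in Tibetan ovaries. Among them PTGFR, the prostaglandin F receptor, reached 274 and 259 FPKM in Jintang 1 and 2, with 32.3 FPKM or less elsewhere, so its high ovaries were those of CRABP1. STAR, the cholesterol transporter of steroid-making cells, did not share that order, with 139 FPKM in both Jintang 1 and Tibetan 3 and 3130 FPKM in Jintang 2. TIMP1 alone made up 5304 FPKM of the luteal sum in Jintang 1. CYP11A1 (912 against 515 FPKM), 3BHSD, LHCGR, SCARB1 and FDX1 were higher in Tibetan 3 than in Jintang 1. PTGFR, PRLR, TIMP1 and PGF were higher in Jintang 1 than in Tibetan 3. Of 12 macrophage markers 11 were found, all 11 highest in Jintang 1, with summed levels of 1521, 187 and 384 FPKM in the Jintang and 91.3 to 300 FPKM in the Tibetan ovaries. The Jintang 2 sum lay within the range of the 4 ovaries of low CRABP1, and CD68, a macrophage lysosomal protein, was lowest there at 9.83 FPKM. All 12 stroma and fibroblast markers were found, and their sums were 11483, 6178 and 4191 FPKM against 2322 to 4486 FPKM. Of the 12, 7 were highest in Jintang 1 or 2. The collagens COL1A1, COL1A2 and COL3A1 stood at 1737, 1652 and 1787 FPKM in Jintang 2, while DCN was lowest there at 531 FPKM. TCF21 and DPT were also lower in Jintang 2 than in Tibetan 1, Tibetan 2 and Jintang 3. Endothelial markers (11 of 12 found) summed to 455, 408 and 237 FPKM against 206 to 329 FPKM. Of the 11, 9 were highest in Jintang 1 or 2, while KDR and EMCN were lowest in Jintang 1, at 25.1 and 28.6 FPKM. VWF was lower in Jintang 2, at 58.1 FPKM, than in Tibetan 1, Tibetan 2 and Jintang 3. No found member of these 4 lists was at 0 in all ovaries. The part of these cell types in the carrier levels was not tested, and in bulk tissue fewer cells of a type and less RNA per cell cannot be told apart.

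The genes most like CRABP1 over the 6 ovaries, by Pearson correlation of log2(FPKM + 1), were PKIB (r = 0.995), SUSD5 (0.994), OSMR (0.992), DOK4 (0.991) and LXN (0.990). PKIB, an inhibitor of protein kinase A, reached 46.4 FPKM in Jintang 1 and 47.5 FPKM in Jintang 2, with 2.60 FPKM or less elsewhere. LXN, the carboxypeptidase inhibitor latexin, was at 122 and 149 FPKM in that pair and at 8.85 FPKM or less elsewhere. OSMR, the oncostatin M receptor, had the same order of high ovaries with a smaller step, from at most 15.6 FPKM to 31.9 and 28.1 FPKM. CRABP2 was most like CARD10 (r = 0.997), NATD1 (0.992) and GPX3 (0.986). GPX3, the secreted glutathione peroxidase, was at 1608 FPKM in Jintang 1, 312 FPKM in Jintang 2 and between 45.5 and 160 FPKM elsewhere. With 6 libraries and 13067 genes these values only describe the libraries, which the genes share.

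The transcripts of RBP4 and STRA6, genes of retinol transport and uptake, did not follow each other, and retinol itself was not measured. RBP4, the retinol carrier of blood (GeneID 102184027), was among the abundant transcripts of each ovary, at 202, 104 and 188 FPKM in the Tibetan and 199, 77.4 and 113 FPKM in the Jintang ovaries. Its rank ran from 338 to 1250 of 17504 genes. The breeds overlapped, with means of 165 ± 53.0 and 130 ± 62.4 FPKM and a log2 difference of -0.39 (95% interval -1.37 to 0.58, limma adjusted p = 0.827). The genes most like RBP4 were BCL6 (r = 0.985), a transcriptional repressor at 17.5 to 37.2 FPKM, RECQL5 (0.979) and KANK3 (0.971).

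STRA6, the membrane receptor for RBP4 (GeneID 102170738), was at 2.01, 1.59 and 64.6 FPKM in the Tibetan and at 18.1, 10.7 and 3.29 FPKM in the Jintang ovaries. Tibetan 3 was the highest ovary and the other 2 Tibetan ovaries the lowest. Expression of RBP4 was 101-fold that of STRA6 in Tibetan 1 and 2.91-fold in Tibetan 3. The breed difference of STRA6 was 0.30 (95% interval -2.41 to 3.02, limma adjusted p = 0.955). It turned to -0.40 without Tibetan 1, -0.51 without Tibetan 2 and -0.17 without Jintang 1, and it was 1.82 without Tibetan 3. TM2D2 (r = 0.990), ADIPOR2 (0.990) and TNFRSF12A (0.984) were most like it. TNFRSF12A, the receptor of the cytokine TWEAK, reached 80.0 FPKM in Tibetan 3, with 35.6 and 21.0 FPKM in the Jintang 1 and 2 ovaries and 3.87 FPKM or less in the rest.

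RDH10, the main enzyme of the first oxidation step in embryos (GeneID 102180778), was at 11.6, 12.9 and 11.2 FPKM in the Tibetan and 7.78, 8.02 and 10.7 FPKM in the Jintang ovaries. Every Jintang value was under every Tibetan value, and Jintang 3 stood 0.510 FPKM below the lowest of them. The log2 difference was -0.40 (95% interval -0.99 to 0.19) and did not pass (limma adjusted p = 0.755). CAAP1 (r = 0.998), MPDZ (0.996) and MAZ (0.996) were most like RDH10.

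Among the retinal dehydrogenases, ALDH1A1 was the most abundant in every ovary. ALDH1A1 (GeneID 102171605) was at 57.5, 109 and 189 FPKM in the Tibetan and 49.9, 79.7 and 124 FPKM in the Jintang ovaries, and it made up between 75.4% and 93.1% of the summed ALDH1A FPKM. The highest ovary was Tibetan 3 and the lowest Jintang 1, and the breeds overlapped. The log2 difference was -0.41 (95% interval -1.55 to 0.72, limma adjusted p = 0.845), and without Tibetan 3 it was -0.0015. TRIM14 (r = 0.995), SLC39A10 (0.987) and CTAGE5 (0.986) were most like it.

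ALDH1A2 (GeneID 102181689) was at 2.73, 6.86 and 55.3 FPKM in the Tibetan and 10.7, 14.3 and 3.19 FPKM in the Jintang ovaries. Its share of the summed ALDH1A FPKM was 22.1% in Tibetan 3, 16.8% in Jintang 1 and 14.7% in Jintang 2, against 2.39% to 5.59% in the other 3 ovaries. The same 3 ovaries were the highest for STRA6. Over the 6 ovaries the log2 levels of ALDH1A2 and STRA6 had r = 0.91 (Spearman rho = 0.77), and r = 0.92 over the 4 ovaries left without Tibetan 2 and Tibetan 3. Those 2 were left out because their STRA6 levels lay farthest from its median. These correlations are given as a description, from 28 pairs of the 8 genes. Other pairs had r as far from 0, such as CRABP2 and ALDH1A3 (-0.93, and -0.91 without Jintang 1 and Tibetan 1). RDH10 and ALDH1A3 also had r = 0.91, which fell to 0.21 without Jintang 1 and Jintang 2, the ovaries farthest from the RDH10 median. The breed difference of ALDH1A2 was -0.38 (95% interval -2.55 to 1.78, limma adjusted p = 0.927), and it turned to 0.74 without Tibetan 3 and to 0.17 without Jintang 3. TMBIM4 (r = 0.985), MAST3 (0.985) and MAP3K15 (0.981) were most like it.

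Tibetan 3, the ovary with the highest STRA6, ALDH1A1 and ALDH1A2, was also highest in some markers of theca cells and surface epithelium, but the summed level of both lists was highest in Jintang 2. CYP17A1, the androgen-making enzyme of theca cells, was at 719 FPKM in Tibetan 3, between 16.3 and 152 FPKM in Tibetan 1, Tibetan 2 and Jintang 3, and at 1.99 and 4.24 FPKM in Jintang 1 and 2. Of 10 theca markers 9 were found, 5 of them highest in Tibetan 3 and 2 (STAR and CYP11A1, also luteal markers) in Jintang 2, with sums of 174, 359 and 1923 FPKM in the Tibetan and 720, 9194 and 345 FPKM in the Jintang ovaries. Mesothelin (MSLN), a marker of mesothelium and ovarian surface epithelium, was at 54.5 FPKM in Tibetan 3 and between 3.22 and 10.6 FPKM elsewhere. Of 13 surface epithelium and mesothelium markers 10 were found, none at 0 in all ovaries, 3 highest in Tibetan 3 and 3 in Jintang 1 or 2. They summed to 47.3, 35.5 and 153 FPKM in the Tibetan and 27.1, 278 and 31.3 FPKM in the Jintang ovaries, and KRT18, a keratin, made up 243 FPKM of the Jintang 2 sum. The granulosa markers, all 15 found, summed to 506, 881 and 1935 FPKM against 1023, 628 and 855 FPKM. INHA and GJA1 made up 1194 and 435 FPKM of the Tibetan 3 sum. Of the 15, 4 were highest in Tibetan 3, and FOXL2 and HSD17B1 were lowest there. The mean log2(FPKM + 1) of the list was 4.20 in Tibetan 3, against 4.89 in Tibetan 2 and 4.90 in Jintang 3. The part of these cell types in the STRA6, ALDH1A1 and ALDH1A2 levels was not tested.

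ALDH1A3 (GeneID 102179885) was the least abundant of the 3 in most ovaries, at 9.70, 6.84 and 6.33 FPKM in the Tibetan and 2.80, 3.01 and 6.09 FPKM in the Jintang ovaries. It exceeded ALDH1A2 in Tibetan 1 and Jintang 3, and the 2 were almost equal in Tibetan 2. Every Jintang value was under every Tibetan value, although Jintang 3 stood close to Tibetan 3. The log2 difference was -0.84 (95% interval -1.63 to -0.05), at an unadjusted p of 0.0403, and it did not pass (limma adjusted p = 0.743). DNASE1 (r = 0.998), TARBP1 (0.997) and EIF4ENIF1 (0.997) were most like it. ALDH1A3 and RDH10 were both lowest in Jintang 1, next lowest in Jintang 2 and then in Jintang 3. Smooth muscle and pericyte markers, all 10 found, had sums of 3827, 2085 and 7652 FPKM in Jintang 1, 2 and 3 and 3985 to 7712 FPKM in Tibetan ovaries. ACTA2 and TAGLN made up 1945 and 1191 FPKM of the Jintang 1 sum. Of the 10, 4 were highest in Jintang 1 or 2, namely RGS5, NOTCH3 and PDGFRB in Jintang 1 and CSPG4 in Jintang 2. The part of these cell types in the levels of RDH10 and ALDH1A3 was not tested.

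**Figure D2:**
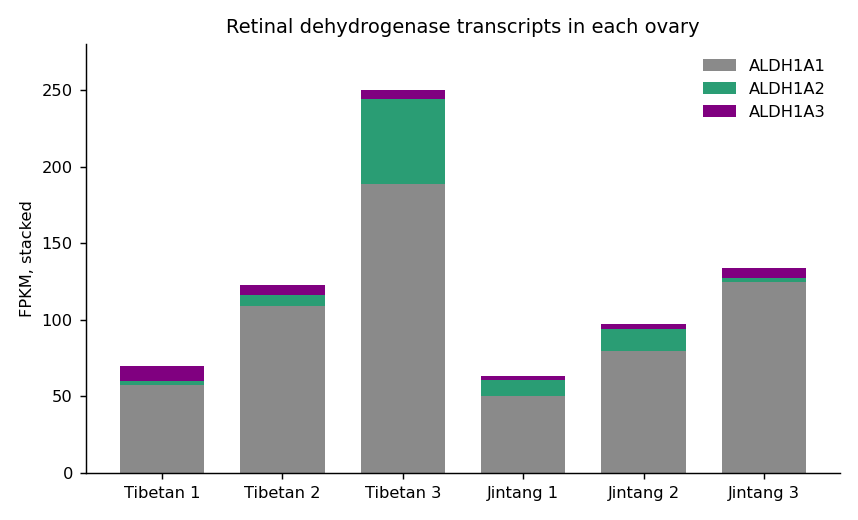
Stacked FPKM of ALDH1A1, ALDH1A2 and ALDH1A3 in each of the 6 ovaries, 1 bar per goat. ALDH1A1 made up at least 75.4% of every bar, and the ALDH1A2 part was largest in Tibetan 3, at 55.3 FPKM.

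The summed FPKM of the 3 ALDH1A genes was 69.9, 123 and 250 in the Tibetan and 63.4, 97.0 and 134 in the Jintang ovaries. The highest and the lowest carrier sums were found in ovaries with similar summed ALDH1A transcript levels. Jintang 1 had the lowest ALDH1A sum and the highest CRABP sum, and Tibetan 1 had the next lowest ALDH1A sum and the lowest CRABP sum. The similarity held for ALDH1A1, at 49.9 FPKM in Jintang 1 and 57.5 FPKM in Tibetan 1. It did not hold for ALDH1A2 (10.7 and 2.73 FPKM) or ALDH1A3 (2.80 and 9.70 FPKM).

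Over all 13067 genes, 0 (0%) passed limma at an adjusted p under 0.05 and 806 (6.17%) had an unadjusted p under 0.05. Of the 7 genes tested here, that is without CRABP1, 0 passed and 2 (CRABP2 and ALDH1A3) had an unadjusted p under 0.05. The Jintang range was wholly below the Tibetan range in 2 of the 7 genes (RDH10 and ALDH1A3), against 6.70% of all genes, and wholly above it in 0 of the 7, against 3.20% of all genes. Median-ratio scaling took the median log2 difference over all genes from -0.10 to 0.02. With it, 641 genes lay wholly below and 601 wholly above, where 875 and 418 did so in the deposited values. RDH10 and ALDH1A3 were without overlap under both. The median log2 difference of the 7 genes was -0.39, with 5 negative, beside -0.10 for all genes, of which 41.0% were positive.

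**Figure D3:**
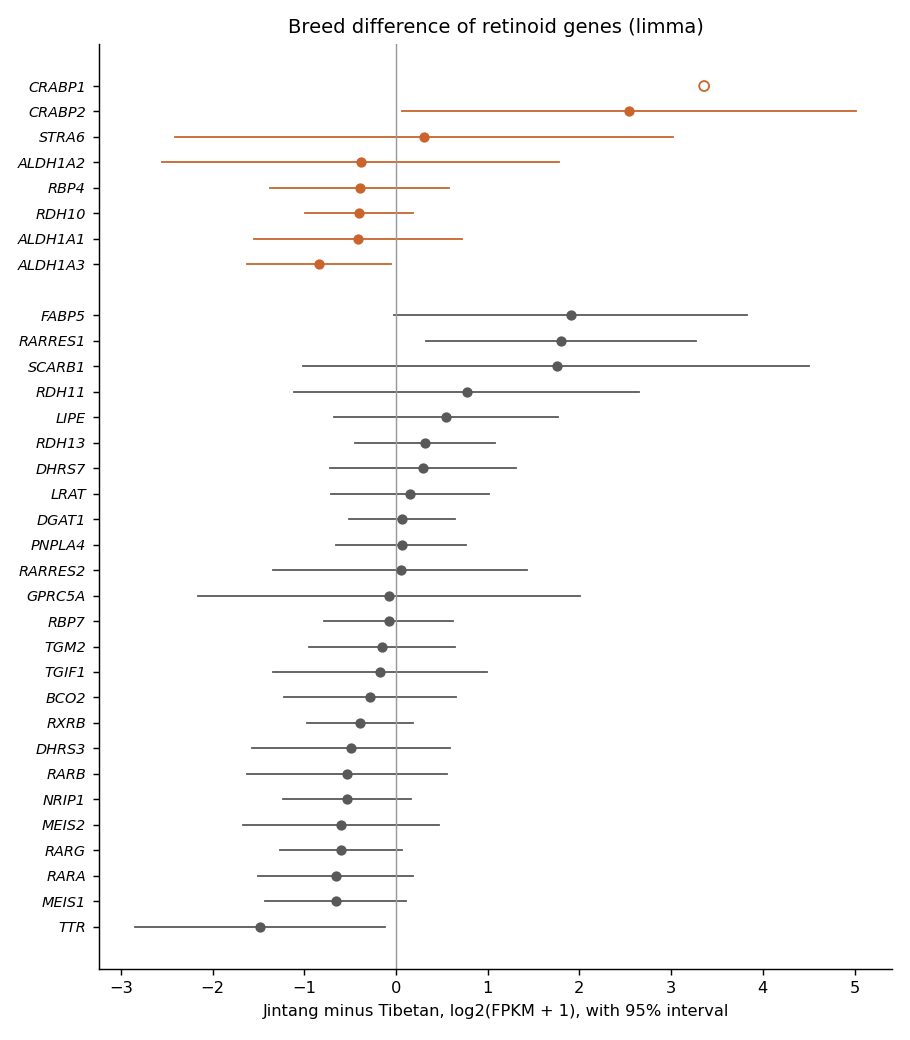
Jintang minus Tibetan difference on the log2(FPKM + 1) scale with its 95% limma interval (n = 3 goats per breed) for the 8 retinoid genes (orange) and 25 other retinoid genes (grey). CRABP1, an open circle at 3.36, has no interval because it was picked on these values; no gene passed at an adjusted p under 0.05.

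A wider list of 61 genes of retinoid transport, metabolism, reception and response was examined. Of these 38 were found and 25 reached the expression level for testing. None passed, and 2 had an unadjusted limma p under 0.05 (RARRES1 and TTR), against 6.17% of all 13067 genes. The difference was positive in 11 and negative in 14, with a median log2 difference of -0.08. Among the 25 tested, the Jintang range was wholly above the Tibetan range in 1 gene (RARRES1), against 3.20% of all genes. It was wholly below in 1 gene (RXRB), against 6.70% of all genes.

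Among the other carriers, 7 of 9 were found and 3 tested, 1 positive and 2 negative. FABP5, a fatty acid carrier that can also bind retinoic acid, was at 0.99, 21.9 and 5.97 FPKM against 50.9, 20.0 and 14.4 FPKM (log2 difference 1.91, limma adjusted p = 0.743). TTR, transthyretin, the partner of RBP4 in blood, was at 5.47, 8.04 and 2.89 FPKM in the Tibetan ovaries and is listed at 1.14, 0 and 3.85 FPKM in the Jintang ovaries (unadjusted p = 0.0359, limma adjusted p = 0.743). RBP7, a cellular retinol-binding protein, lay between 2.50 and 4.65 FPKM, and RBP5 was listed at 0 in 3 ovaries and at no more than 2.1 FPKM in the others.

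Among the other oxidoreductases, 9 of 18 were found and 4 tested, 3 positive and 1 negative. DHRS3, which turns retinal back into retinol, was at 109, 99.0 and 136 FPKM in the Tibetan and 91.9, 38.2 and 148 FPKM in the Jintang ovaries (log2 difference -0.49, limma adjusted p = 0.808), and in each ovary it exceeded RDH10. RDH11 was at 3.76, 5.71 and 22.9 FPKM against 10.6, 48.2 and 5.60 FPKM, highest in Jintang 2. DHRS7 lay between 9.35 and 32.0 FPKM, and RDH13 between 2.96 and 6.24 FPKM.

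Genes of ester storage and carotenoid cleavage had 7 of 10 found and 6 tested, 5 positive and 1 negative, with a median log2 difference of 0.11. SCARB1, a lipoprotein receptor that also takes up carotenoids, was at 21.8, 33.0 and 156 FPKM against 114, 1099 and 35.4 FPKM. It also stands among the luteal markers. DGAT1 was steady at 8.29 to 10.6 FPKM, BCO2 was highest in Tibetan 3 at 14.9 FPKM, and LIPE, hormone-sensitive lipase, was highest in Jintang 2 at 15.1 FPKM. LRAT, the enzyme that esterifies retinol, stayed between 1.45 and 3.47 FPKM. Of 4 other retinoic acid hydroxylases, 0 matched a gene.

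Of 6 retinoid receptors 5 were found and 4 tested, and all 4 were lower on average in Jintang ovaries, under the deposited and the median-ratio scaling, though none passed. Of all 13067 genes, 41.0% were higher on average in the Jintang ovaries in the deposited values, so a negative difference was the more frequent one. RARA was at 89.4, 38.7 and 49.7 FPKM in the Tibetan and 32.9, 27.3 and 47.0 FPKM in the Jintang ovaries (log2 difference -0.66, limma adjusted p = 0.743). RARG was at 24.9, 20.4 and 15.6 FPKM against 10.9, 11.8 and 16.2 FPKM. RARB was at 10.1, 3.65 and 4.51 FPKM against 4.85, 1.55 and 5.34 FPKM. RXRB was at 44.8, 39.0 and 41.8 FPKM against 34.0, 25.8 and 36.0 FPKM, without overlap (log2 difference -0.39, limma adjusted p = 0.755). RXRG was low, between 0.11 and 1.43 FPKM.

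Of 18 genes known to respond to retinoic acid, 13 were found and 11 tested, 3 positive and 8 negative, with a median log2 difference of -0.18. RARB, DHRS3 and LRAT among them also belong to the groups above. RARRES1, named for its response to a retinoid, was at 58.7, 36.2 and 47.6 FPKM in the Tibetan and 432, 174 and 59.2 FPKM in the Jintang ovaries. Its high ovaries were those of CRABP1 and CRABP2, in the same order, and the Jintang range was wholly above the Tibetan one, Jintang 3 by 0.490 FPKM. The difference was 1.80 (SE 0.64), at an unadjusted p of 0.0222 and a limma adjusted p of 0.743. None of the other tested genes among these 11 had a Jintang range wholly above the Tibetan one, which held for 3.20% of all 13067 genes. TGM2, a transglutaminase, was at 145, 144 and 244 FPKM against 170, 192 and 113 FPKM. RARRES2, the adipokine chemerin, ranged widely, at 1066, 797 and 1056 FPKM against 1808, 373 and 1460 FPKM. STRA8, which marks germ cells entering meiosis, did not reach the level for testing and lay between 0.25 and 0.54 FPKM in the Tibetan and between 0.59 and 1.24 FPKM in the Jintang ovaries. These values are near the floor, and STRA8 was named after they were seen. RXRG, also untested, lay the other way, at 0.32 to 1.43 FPKM in the Tibetan and 0.11 to 0.31 FPKM in the Jintang ovaries.

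**Figure D4:**
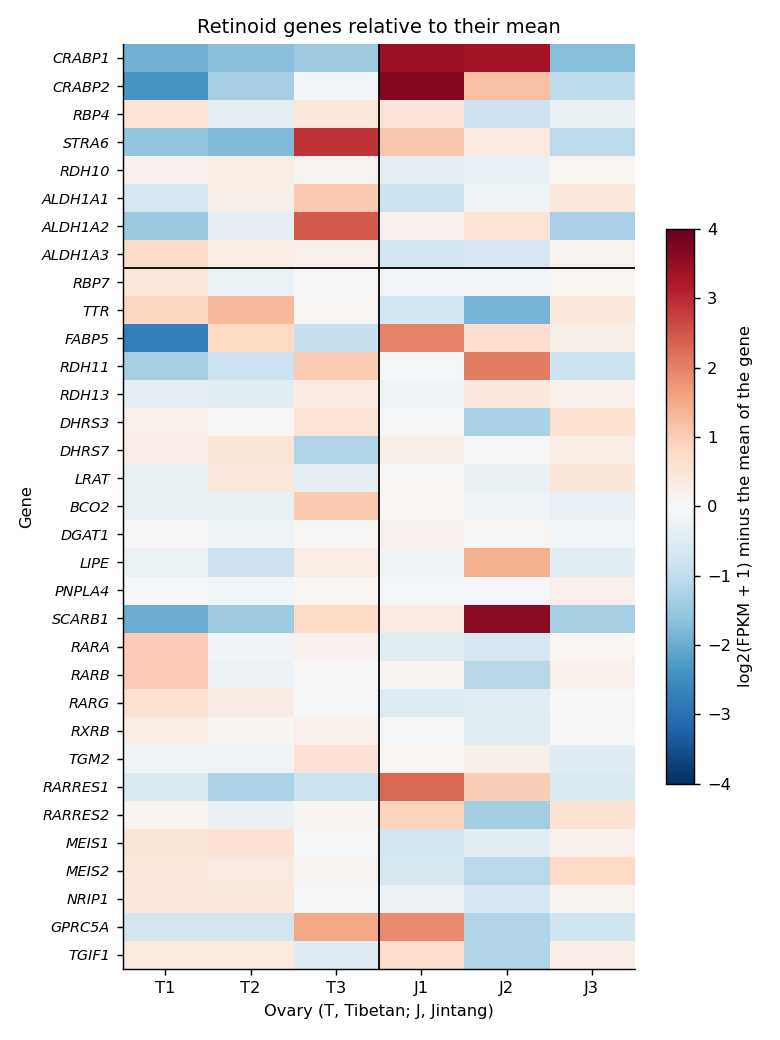
Log2(FPKM + 1) of the 8 retinoid genes (above the line) and 25 other retinoid genes in each ovary, minus the mean of the gene over the 6 ovaries. CRABP1, CRABP2 and RARRES1 are highest in Jintang 1 and Jintang 2, and STRA6 and ALDH1A2 are highest in Tibetan 3.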

How the data were processed

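Ovary RNA was isolated with TRIzol and sequenced from NEBNext libraries, per the labels' protocols. The authors deposited 1 FPKM table per goat. Tools named in the submitters' processing notes, with no role, are RSEM 1.2.0, TopHat2 2.0.10 and Bowtie2 2.1.0. Coordinates are omitted, since the genome build was not given in the sources used here. A series-wide table held the same 6 columns and was not used. GeneIDs were paired with symbols from a RefSeq gene table (ARS1.2), 16459 of 17504 by GeneID and 31 by transcript accession; CYP11A1 and CYP17A1 were found as synonyms, and 45 of 225 list entries, CYP26B1 among them, were unmatched.

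Breed differences were fitted in R 4.3.3 by limma 3.58.1 (eBayes with trend) on log2(FPKM + 1), 2-sided, Benjamini-Hochberg over 13067 genes with at least 1 FPKM in 3 libraries, threshold 0.05. The fit was also run on simulated data drawn independently for each gene, so deviations that genes share within a library were not covered. Each p measures spread between single goats. Relative depth is the modal ratio of values between 0.15 and 1 FPKM. Python 3.11.15, pandas 2.3.3, numpy 2.4.6 and matplotlib 3.10.9 gave summaries and figures. Genes and lists were chosen with earlier results of these data known. Text names the 8 genes, the 4 most abundant of each further retinoid list, the 3 with the smallest p, all receptors found, and the 5 (CRABP1) or 3 (others) genes of highest r; LRAT and STRA8 were named after their values were seen. Some genes of these lists are not reported here. Of 14 marker lists, the text gives those set beside a result; oocyte markers summed to 0.96 to 24.9 FPKM, oviduct 14.0 to 38.7, lymphocyte 27.7 to 110, erythrocyte 0.13 to 0.72, adipocyte 11.6 to 63.0 and nerve 10.4 to 42.9 FPKM. Alternatives were other pseudocounts, filters and scalings, no trend, a replicate block and leaving out each library.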

Additional observations from a re-analysis of the deposited data

How the results depend on the processing

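No gene of the 7 tested passed under any alternative run, with limma adjusted p between 0.200 and 0.9995. CRABP2, RBP4, RDH10, ALDH1A1 and ALDH1A3 kept the direction of their difference in every alternative. So did CRABP1 wherever it had a value, but it was picked for its high level in Jintang 1 and Jintang 2. Its kept direction therefore restates the choice and is no separate result. STRA6 turned to -0.40 without Tibetan 1, -0.51 without Tibetan 2 and -0.17 without Jintang 1 (range over single libraries left out -0.51 to 1.82), and ALDH1A2 to 0.74 without Tibetan 3 and 0.17 without Jintang 3 (range -1.21 to 0.74); the cause was not tested. The median of the 25 other retinoid genes turned from -0.081 to 0.015 with median-ratio scaling, which shifts the median over all genes by 0.12. Over all genes, leaving out single libraries gave between 0 and 13 calls (13 without Jintang 3, none of them among the 7) and between 336 (without Tibetan 1) and 1874 (without Jintang 3) genes at an unadjusted p under 0.05; without Jintang 1 there were 352 and without Jintang 2 535. The labels give both breeds the numbers 1 to 3 but do not say that they pair goats. Same-numbered goats deviated with correlations of -0.018, -0.211 and -0.470 over genes, and no goat correlated best with its own number; with the replicate block, 581 genes were at an unadjusted p under 0.05 and 0 passed. CRABP1 did not reach the filter of 5 FPKM in 3 libraries, so that setting gave it no value. Absolute depth is unknown, so no counting interval can be given for low values such as CRABP1 in 4 ovaries.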
